A study of Arabidopsis thaliana with 18 samples.

Results

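Of 23790 genes in a table of leaf RNA from Arabidopsis thaliana, 83 were near silent in every uninduced and control group and reached 5 CPM or more after an artificial microRNA (amiRNA) against NAA50 was switched on. A gene was taken when its mean was under 1 CPM in 4 groups (the NAA50 line at 0 h and the scrambled line at 0, 12 and 24 h) and at least 5 CPM in the NAA50 line at 12 or 24 h. CPM are counts scaled to a common library size with TMM factors. The genes were thus chosen by their own mean levels in the 6 groups, so those levels are given as a description with no test. All 83 passed the filter on low counts, through the groups in which they are high, as did 18344 genes in all. They comprise 81 protein-coding genes, the microRNA locus MIR408 and the long noncoding RNA AT2G22821. The annotation gives 37 of them a symbol, and the other 46 are called by their locus identifier.

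Both lines carry a transgene that dexamethasone, a synthetic glucocorticoid, induces. In the NAA50 line it makes an amiRNA directed at NAA50 (AT5G11340), while the scrambled line serves as control and makes an amiRNA of scrambled sequence. Plants of both lines were 4 weeks old, grew in 8 h days and 16 h nights and were sprayed with 50 µM dexamethasone, and leaves were taken 0, 12 and 24 h later. Each of the 6 groups holds 3 libraries, each from 0.4 g of tissue pooled from the 4th leaf of 4 plants, so p-values measure the spread between such pools. The promoter of the transgene, the cells it acts in and the number of independent insertions behind each line are not stated in any source used here.

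NAA50 is a catalytic subunit of N-terminal acetyltransferases, enzymes that add an acetyl group to the first residue of many proteins. Plants also keep large parts of their genome off in any one organ: seed maturation proteins, pollen wall enzymes and root receptors are transcribed in their own tissues or under a particular stress, and in a mature leaf their transcripts are rare. A gene that is off in control leaves and on in induced leaves can therefore be followed with little background. In RNA from whole leaves, a change in the number of cells that transcribe a gene and a change in the RNA per cell cannot be told apart.

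MIR408 (AT2G47015, chr2:19319814-19320031, plus strand) is shown first because it is the 1 microRNA among the 83. It also had the highest level per kilobase of annotated transcript, which for MIR408 is a precursor of only 218 bases. MIR408 makes a microRNA that plants use under low copper, when it silences transcripts of copper proteins such as plantacyanin and laccases, and the factor SPL7 activates it through GTAC boxes. Its mature products, read from the RefSeq genome TAIR10.1, are given with bases 2 to 8, the seed, in capitals; the 3p product lies at chr2:19319933-19319953 and the 5p product at chr2:19319866-19319886, both on the plus strand.
miR408-3p: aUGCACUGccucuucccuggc
miR408-5p: aCAGGGAAcaagcagagcaug
Of the 250 bases before its annotated start, the stretch chr2:19319564-19319684 (plus strand) lies outside any exon, and its 2 GTAC boxes are in capitals. The 250 bases hold 4 GTAC boxes in all. The part nearer the start meets an annotated exon and is not printed.
MIR408 upstream: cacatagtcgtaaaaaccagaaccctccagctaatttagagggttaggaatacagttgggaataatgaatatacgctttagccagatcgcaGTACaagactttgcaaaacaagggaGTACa

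The ABA response element core ACGTG, a motif bound by bZIP factors of abscisic acid (ABA) signalling, stood in the 250 bases before the start of 32 of the 83 genes. The promoters of 4 of them with a known link to ABA or seed maturation are shown, all from TAIR10.1, with the core in capitals. Where the core sits in the palindrome CACGTG (the G box), it is read on both strands, and the whole palindrome is in capitals. The windows are chr1:751977-752190 (plus strand) for RAB28, chr2:17209447-17209696 (plus strand) for M10, chr2:12608425-12608674 (plus strand) for HAI3 and chr1:29492876-29493125 (minus strand) for NCED9.
RAB28 upstream: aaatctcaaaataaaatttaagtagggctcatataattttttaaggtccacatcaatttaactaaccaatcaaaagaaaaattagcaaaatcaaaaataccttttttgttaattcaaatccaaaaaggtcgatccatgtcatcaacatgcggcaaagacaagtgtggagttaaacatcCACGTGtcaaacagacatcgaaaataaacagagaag
M10 upstream: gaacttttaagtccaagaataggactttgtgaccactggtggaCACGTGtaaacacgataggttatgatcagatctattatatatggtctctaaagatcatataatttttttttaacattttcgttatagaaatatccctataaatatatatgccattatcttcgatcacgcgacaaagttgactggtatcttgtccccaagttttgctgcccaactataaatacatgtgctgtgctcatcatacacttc
HAI3 upstream: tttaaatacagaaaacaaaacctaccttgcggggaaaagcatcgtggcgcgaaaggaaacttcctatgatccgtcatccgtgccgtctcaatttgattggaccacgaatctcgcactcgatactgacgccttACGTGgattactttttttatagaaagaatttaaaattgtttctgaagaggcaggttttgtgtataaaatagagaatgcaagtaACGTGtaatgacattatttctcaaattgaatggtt
NCED9 upstream: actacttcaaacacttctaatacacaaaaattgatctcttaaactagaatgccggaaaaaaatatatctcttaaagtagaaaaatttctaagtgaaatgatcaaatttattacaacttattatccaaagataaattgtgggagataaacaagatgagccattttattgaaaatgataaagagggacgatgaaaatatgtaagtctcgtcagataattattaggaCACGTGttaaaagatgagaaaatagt

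The libraries held 10389333 to 12353330 counts, and a count of 0 in a library allows up to 0.224 to 0.322 CPM (3 counts, counting error only). NAA50 itself had 13.4, 11.6 and 12.7 CPM at 0 h, 3.75, 4.16 and 3.12 CPM at 12 h and 2.36, 3.31 and 4.62 CPM at 24 h in the NAA50 line. In the scrambled line it had 14.8, 13.8 and 13.4 CPM at 0 h, 16.6, 12.8 and 15.7 CPM at 12 h and 17.7, 17.1 and 16.03 CPM at 24 h. It was lower in the NAA50 line by a log2 difference of -2.03 at 12 h and -2.28 at 24 h (edgeR adjusted p = 5.38e-07 and 1.47e-07), and the libraries of the lines did not overlap at either time. At 24 h the 3 NAA50 libraries with 2.36, 3.31 and 4.62 CPM of NAA50 held 974, 1176 and 798 CPM of the 83 genes. The leaf markers were present: 19 of 23 were measured, and together they had 38861 CPM at 12 h and 32361 CPM at 24 h in the NAA50 line and 79238 CPM at 12 h and 51725 CPM at 24 h in the scrambled line. Library 2 of the scrambled line at 0 h stood apart with the lowest TMM factor (0.865), and without it the rule takes 84 genes, all 83 among them.

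Summed over the 83 genes, the NAA50 line had 23.9, 16.0 and 31.3 CPM at 0 h, 643, 704 and 609 CPM at 12 h and 974, 1176 and 798 CPM at 24 h. The scrambled line had 17.0, 18.6 and 20.2 CPM at 0 h, 19.0, 23.6 and 20.4 CPM at 12 h and 15.7, 21.6 and 21.2 CPM at 24 h. All 6 induced NAA50 libraries lay far above the other 12, as the rule required of the means. At 12 h 45 of the 83 genes had reached a mean of 5 CPM and at 24 h 76, with 38 at both times, 7 at 12 h alone and 38 at 24 h alone. A further 34 stood between 1 and 5 CPM at 12 h, and 4 were still under 1 CPM (MAN1, CYP702A2, AT5G01760 and AT5G23950). The 5 highest genes carried 28.3% of the summed level at 12 h and 23.1% at 24 h. In the fit over all genes, 76 of the 83 at 12 h and all 83 at 24 h counted as higher than in the scrambled line, where 21.9% and 23.9% of all genes tested did; the rule used these means, so nothing is read from the counts.

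**Figure D1:**
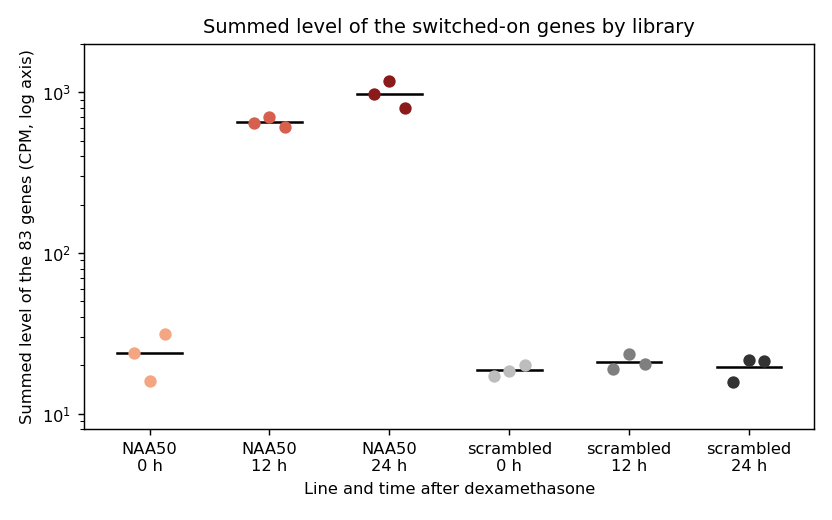
Summed level (CPM, log axis) of the 83 genes in each library, by line and time after dexamethasone; points are libraries and lines are group means. The NAA50 libraries sit at 609 to 704 CPM at 12 h and 798 to 1176 CPM at 24 h, and the other 12 libraries at 15.7 to 31.3 CPM.

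The silence was not complete at the level of single libraries. In 21 of the 83 genes at least 1 of the 12 uninduced or control libraries reached 1 CPM, with 2.29 CPM for CCD8 in library 1 of the NAA50 line at 0 h as the highest value. Only AT1G14220, AT4G18660, AT2G34350 and GLIP2 had no count in any of those 12 libraries. Library 3 of the NAA50 line at 0 h had 8 of the genes at 1 CPM or more (AT3G16330, MYB122, CBF4, MEE25, NAT7, HAI3, TPR14 and AT1G31690), library 1 had 4 and library 2 had none. For HAI3, for example, these 0 h libraries had 0.254, 0.191 and 1.61 CPM, and the scrambled line at 0 h had a mean of 0.227 CPM.

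At the threshold for silence the last genes inside were AT5G65170, SSL1 and AT5G01760, with a highest silent group mean of 0.994, 0.963 and 0.960 CPM, and the first outside were GA3OX2, CYCA1;2 and SLY2, with 1.03, 1.04 and 1.05 CPM. At the threshold for being on, the last inside were AT5G23830, EDA21 and AT5G23950, with 5.01, 5.08 and 5.10 CPM, and the first outside were IGMT5, AT2G03020 and AT2G39690, with 4.95, 4.86 and 4.86 CPM.

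**Figure D2:**
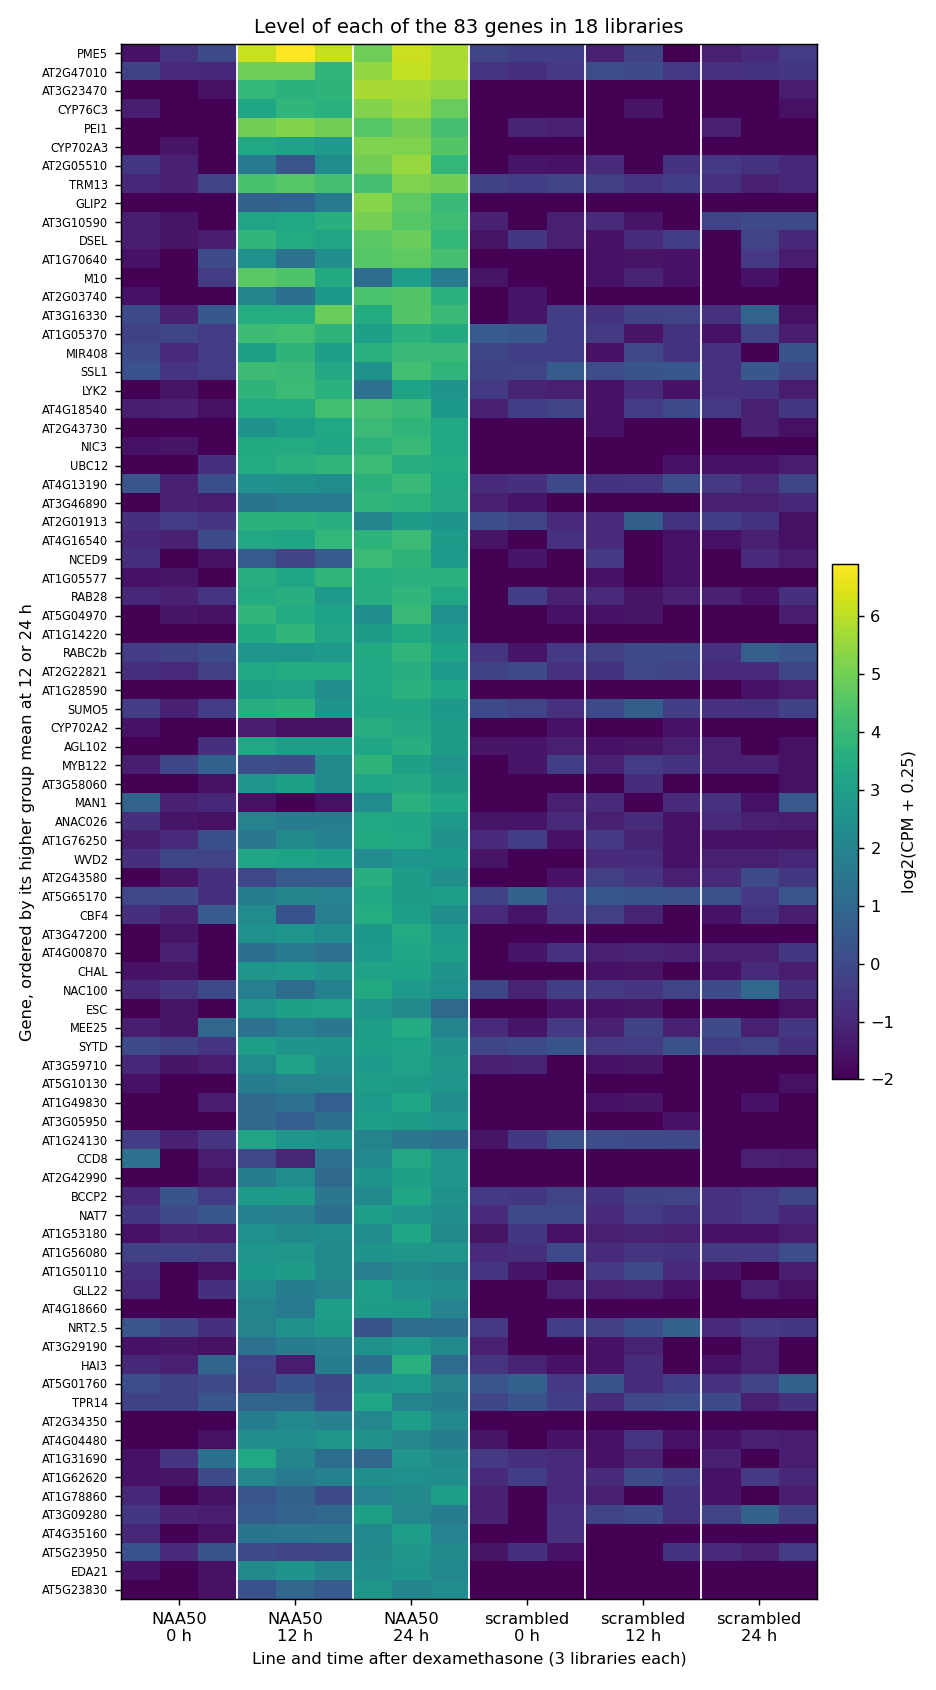
Level of each of the 83 genes (rows, ordered by the higher of their mean levels at 12 and 24 h in the NAA50 line) in each of the 18 libraries (columns), as log2(CPM + 0.25). The 6 induced NAA50 libraries are bright and the other 12 dark; MAN1 and CYP702A2 are still dark at 12 h, and M10 is brighter at 12 h than at 24 h.

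The rule asked for 5 CPM at 12 or 24 h and so used the levels at both times. The change between them is therefore not independent of how the genes were chosen, and its counts and p-values are given as a description. The same holds for each of the 83 genes, and each family of them, said below to rise, fall or pass. In the NAA50 line 33 of the 83 genes (39.8%) rose, against 10.4% of all genes tested, and 5 (6.02%) fell, against 9.69% of all genes tested, or 20.1% in both directions (edgeR quasi-likelihood test, Benjamini-Hochberg adjustment over 18344 genes, 3 libraries at each time). The other 45 did not pass the test. In the scrambled line, where the rule kept the 83 genes under 1 CPM, 30.7% of all genes tested changed over the same interval. The median log2 change over the 83 genes was 0.63, and that over all genes tested -0.01. The rule took the higher of the 2 times for each gene, which favours genes with a large difference between them in either direction, so nothing is read from these shares or medians against those of all genes. The libraries of the 2 times did not overlap in 43 genes that were higher at 24 h and in 10 that were lower. The share of all genes tested without such an overlap was not computed, so nothing is read from these counts either. Of the 24 h libraries, library 2 was highest in 51 genes, library 1 in 28 and library 3 in 4, and without library 2 the rule takes 76 genes.

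**Figure D3:**
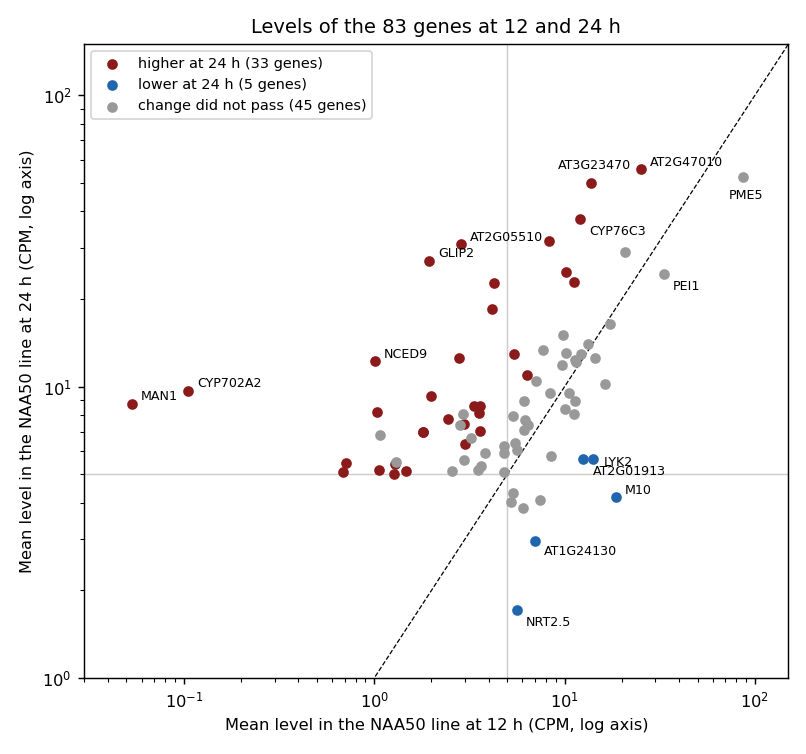
Mean level of each of the 83 genes in the NAA50 line at 24 h against that at 12 h (CPM, log axes, n = 3 libraries each), coloured by the edgeR test of the change; the dashed line marks equal levels and the grey lines 5 CPM. MAN1, CYP702A2 and NCED9 lie far left of the dashed line, and the 5 genes that fell (M10, LYK2, AT2G01913, AT1G24130 and NRT2.5) lie right of it.

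The largest rises from 12 to 24 h came from genes that were barely on at 12 h. MAN1 (AT1G02310; chr1:458133-460831, minus strand) encodes an endo-beta-mannanase, an enzyme that cuts mannans of the cell wall. It had 0.0781, 0 and 0.0821 CPM at 12 h and 4.62, 12.5 and 9.09 CPM at 24 h. Those 2 counts at 12 h and 301 at 24 h are a ratio of 166 (95% interval 45.6 to 1379, exact, counting error only), and the change passed the test (edgeR adjusted p = 0.000132). MAN1 shares 63.4% of its length with the gene AT1G04103 on the other strand. CYP702A2, a cytochrome P450, had 0.156, 0.0784 and 0.0821 CPM at 12 h and 11.5, 10.1 and 7.38 CPM at 24 h, a log2 change of 6.37 ± 0.48 (SE; edgeR adjusted p = 4.97e-06). NCED9, which makes the precursor of ABA in seeds, had 1.17, 0.627 and 1.23 CPM at 12 h and 16.4, 13.6 and 6.63 CPM at 24 h, a log2 change of 3.58 ± 0.52 (SE; edgeR adjusted p = 0.000226). In each of these genes all 3 libraries at 24 h stood above all 3 at 12 h. The other members of the 5 largest rises, GLIP2 and AT2G05510, are described with their families.

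All 5 genes that fell kept levels above the scrambled line at 24 h. M10 is described with the seed genes. LYK2 (AT3G01840; chr3:296582-298648, minus strand) encodes a LysM receptor-like kinase, a family that includes receptors for chitin and related sugars. It had 13.5, 16.4 and 12.31 CPM at 12 h and 2.26, 8.79 and 5.89 CPM at 24 h, a log2 change of -1.31 ± 0.35 (SE; edgeR adjusted p = 0.0151). The whole of LYK2 lies inside AT3G01830 on the other strand, which had mean levels of 82.3 CPM at 12 h and 131 CPM at 24 h in the NAA50 line and 66.7 CPM at 12 h and 53.6 CPM at 24 h in the scrambled line; no source used here states the strand setting of the counting, so their reads may not be separate. NRT2.5, a high-affinity nitrate transporter of nitrogen-starved plants, had 3.75, 5.72 and 7.31 CPM at 12 h and 0.982, 1.99 and 2.16 CPM at 24 h, a log2 change of -1.69 ± 0.44 (SE; edgeR adjusted p = 0.0132). AT1G24130, a WD40 repeat protein, had a log2 change of -1.24 ± 0.35 (SE; edgeR adjusted p = 0.0222), and AT2G01913, an uncharacterized protein, one of -1.15 ± 0.33 (SE; edgeR adjusted p = 0.0229). Only M10 of the 5 passed the test in every one of 12 alternative analyses, while 25 of the 33 rises did. Those analyses used the same chosen genes, so they too are a description.

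The 5 cell wall genes held the highest level of all. PME5 (AT5G47500; chr5:19270944-19272892, minus strand) encodes a pectin methylesterase, an enzyme that removes methyl groups from pectin and so sets how stiff the wall is. PME5 had 0.0848, 0.382 and 0.804 CPM at 0 h, 71.9, 119.9 and 69.1 CPM at 12 h and 30.8, 72.2 and 54.4 CPM at 24 h in the NAA50 line. For PME5 the scrambled line had 0.659, 0.536 and 0.540 CPM at 0 h, 0.182, 0.590 and 0 CPM at 12 h and 0.179, 0.272 and 0.488 CPM at 24 h. The 6 induced NAA50 libraries lay above 30 CPM and the other 12 below 1 CPM, and libraries at 12 and 24 h overlapped. By summed counts PME5 was 351-fold above the scrambled line at 12 h and 166-fold at 24 h. Its log2 change from 12 to 24 h was -0.73 ± 0.32 (SE; edgeR adjusted p = 0.118) and did not pass, though it did in a fit with the sample number as a block (adjusted p = 0.0496). AT2G05510 (chr2:2015624-2016772, plus strand) encodes a glycine-rich protein. AT2G05510 had 0.424, 0.191 and 0 CPM at 0 h, 2.89, 1.02 and 4.68 CPM at 12 h and 31.2, 46.6 and 14.7 CPM at 24 h in the NAA50 line. For AT2G05510 the scrambled line had 0, 0.107 and 0.0900 CPM at 0 h, 0.273, 0 and 0.362 CPM at 12 h and 0.448, 0.362 and 0.244 CPM at 24 h. Its 24 h libraries all lay above those at 12 h, and its log2 change was 3.43 ± 0.49 (SE; edgeR adjusted p = 0.000213). AT5G04970, an enzyme with a pectin methylesterase and an inhibitor domain, peaked at 11.4 CPM, MAN1 at 8.73 CPM and MEE25 at 7.41 CPM.

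Of the pectin methylesterases on a list of 23, 14 were measured and PME5 was the 1 member of the set; of the 8 others that passed the filter, 2 were higher and 1 lower than in the scrambled line at 12 h, and 3 were higher and 2 lower at 24 h, where 46.2% of all genes tested were called at 12 h (21.9% higher, the rest lower) and 47.9% at 24 h (23.9% higher, the rest lower). With any 1 library of these groups left out, 0 or 1 was higher at 12 h, while at 24 h 2 or 3 were higher and 1 or 2 lower. PME44 had 149.8 ± 38.7 CPM at 12 h and 252 ± 78.5 CPM at 24 h in the NAA50 line, and 135 ± 33.9 CPM at 12 h and 83.9 ± 20.6 CPM at 24 h in the scrambled line (mean ± SD, n = 3). Its line difference passed at 24 h (log2 1.59 ± 0.28 (SE; edgeR adjusted p = 0.000332)).

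The MIR408 locus put 2 neighbouring genes on the list. AT2G47010 (chr2:19317126-19319397, plus strand), annotated as a calcium/calmodulin-dependent kinase, ends 416 bases before MIR408 on the same strand. AT2G47010 had 0.593, 0.286 and 0.241 CPM at 0 h, 30.5, 30.8 and 14.0 CPM at 12 h and 43.7, 68.5 and 54.7 CPM at 24 h in the NAA50 line. For AT2G47010 the scrambled line had 0.377, 0.322 and 0.450 CPM at 0 h, 0.820, 0.786 and 0.453 CPM at 12 h and 0.359, 0.362 and 0.407 CPM at 24 h. All 3 libraries at 24 h stood above those at 12 h, and the log2 change was 1.15 ± 0.24 (SE; edgeR adjusted p = 0.00330). MIR408 had 0.763, 0.286 and 0.482 CPM at 0 h, 8.20, 13.6 and 7.72 CPM at 12 h and 12.8, 16.2 and 16.2 CPM at 24 h in the NAA50 line. For MIR408 the scrambled line had 0.659, 0.536 and 0.540 CPM at 0 h, 0.0911, 0.688 and 0.362 CPM at 12 h and 0.359, 0 and 0.976 CPM at 24 h. Its libraries at 12 and 24 h overlapped, and its log2 change of 0.61 ± 0.36 (SE; edgeR adjusted p = 0.249) did not pass. Per kilobase of annotated transcript MIR408 peaked at 69.1 CPM, ahead of PME5 with 59.8 CPM. That rank rests on the 218 bases annotated for the MIR408 precursor. With the strand setting of the counting not stated, its reads may not be separate from those of the gene that overlaps it. The MIR408 locus lies wholly within AT2G47020 on the other strand, which had 3.77 CPM at 12 h and 2.86 CPM at 24 h in the NAA50 line and 3.06 CPM at 12 h and 2.47 CPM at 24 h in the scrambled line. Libraries made from mRNA measure precursor transcripts, so the mature microRNA printed above was not measured.

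Copper genes were looked up after MIR408 had been seen among the 83. Of the miR408 targets, ARPN and LAC3 stayed under 1 CPM in every group. LAC13 was lower at 24 h, with 4.76 ± 0.769 CPM in NAA50 leaves against 11.8 ± 2.67 CPM in scrambled leaves (mean ± SD, n = 3; log2 difference -1.3, edgeR adjusted p = 0.0021). LAC12, another target, was higher at 24 h, with 2.79 ± 0.806 CPM in NAA50 leaves against 0.410 ± 0.633 CPM in scrambled leaves (log2 difference 2.68, edgeR adjusted p = 0.0176). The precursors of another copper microRNA, MIR398b and MIR398c, were higher at 12 h by log2 differences of 1.79 and 0.67 (edgeR adjusted p = 0.000732 and 0.0196). At 24 h the differences were 1.96 and 1.3 (edgeR adjusted p = 0.000299 and 0.000186). MIR398b had 2.24 ± 0.597 CPM in the NAA50 line and 0.975 ± 0.214 CPM in the scrambled line already at 0 h (mean ± SD, n = 3). MIR398c had 11.4 and 11.5 CPM then, and these 0 h differences were not tested. At both times the iron superoxide dismutase FSD1 was higher, with log2 differences of 1.0 at 12 h and 1.08 at 24 h, and the copper chaperone CCS, a miR398 target, was lower, with -0.99 and -1.25. Of the other miR398 targets CSD2 was lower at both times (-1.16 and -0.88, edgeR adjusted p = 0.0127 and 0.0465), and CSD1 did not pass at either (-0.49 and -0.57, edgeR adjusted p = 0.122 and 0.0685). The copper microRNA genes MIR397a and MIR857 had means of 0.0327 CPM or less in every group. Among other genes of copper deficiency the transporter COPT2 passed at 24 h alone (log2 difference 1.60) and the copper chaperone CCH at 12 h alone (0.44). SPL7 was higher by 0.36 at 12 h and 0.29 at 24 h (edgeR adjusted p = 0.0161 and 0.0470).

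Among the 10 transcription factor genes, 6 rose from 12 to 24 h and none fell. Of all genes tested 10.4% rose and 9.69% fell, and nothing is read from counts in so small a family. PEI1 (AT5G07500; chr5:2372619-2373655, plus strand) encodes a zinc finger protein known from the embryo. PEI1 had 0 CPM in all 3 libraries at 0 h, 31.5, 36.6 and 31.4 CPM at 12 h and 23.6, 30.9 and 18.8 CPM at 24 h in the NAA50 line. For PEI1 the scrambled line had 0, 0.215 and 0.18 CPM at 0 h, 0 CPM in all 3 libraries at 12 h and 0.179, 0 and 0 CPM at 24 h. PEI1 was at 18.8 CPM or more in all 6 induced libraries and at 0.215 CPM or less in the other 12; its 24 h libraries all lay below those at 12 h, but the log2 change of -0.44 ± 0.24 (SE; edgeR adjusted p = 0.218) did not pass. AT3G10590 (chr3:3310208-3311327, minus strand) encodes a MYB-like protein with a duplicated homeodomain-like fold. AT3G10590 had 0.170, 0.0955 and 0 CPM at 0 h, 8.91, 9.80 and 11.7 CPM at 12 h and 33.8, 23.2 and 17.5 CPM at 24 h in the NAA50 line. For AT3G10590 the scrambled line had 0.188, 0 and 0.18 CPM at 0 h, 0.273, 0.0983 and 0 CPM at 12 h and 0.628, 0.725 and 0.732 CPM at 24 h. The log2 change of AT3G10590 was 1.29 ± 0.27 (SE; edgeR adjusted p = 0.00395), and its scrambled libraries at 24 h lay above those at 12 h without reaching 1 CPM. MYB122, a regulator of indole glucosinolate synthesis, had 0.859, 0.784 and 4.35 CPM at 12 h and 13.8, 8.04 and 6.04 CPM at 24 h, a log2 change of 2.21 ± 0.60 (SE; edgeR adjusted p = 0.0179) that was lost when library 1 or 2 at 12 h or library 1 at 24 h was left out (adjusted p = 0.0860, 0.0856 and 0.0834). The NAC factors ANAC026 and NAC100 and the basic helix-loop-helix proteins AT4G00870 and AT1G49830 also rose. The call of NAC100 was lost without library 1 or 2 at 12 h or library 1 at 24 h (edgeR adjusted p = 0.0620, 0.119 and 0.129). CBF4, a factor of drought and ABA responses, had 4.61, 0.941 and 3.28 CPM at 12 h and 11.3, 7.75 and 5.14 CPM at 24 h without passing the test, though it did in a fit with the sample number as a block (adjusted p = 0.0479), and neither the AT-hook gene ESC nor the MADS-box gene AGL102 passed it.

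The 6 seed and ABA genes held 4 that code for proteins of late embryogenesis or seed dormancy. M10 (AT2G41280; chr2:17209697-17210423, plus strand) encodes a late embryogenesis abundant (LEA) protein, small hydrophilic proteins that protect cells of the drying seed. M10 had 0, 0 and 0.482 CPM at 0 h, 24.22, 21.6 and 10.3 CPM at 12 h and 1.96, 7.66 and 2.91 CPM at 24 h in the NAA50 line. For M10 the scrambled line had 0.0942, 0 and 0 CPM at 0 h, 0.0911, 0.197 and 0.0906 CPM at 12 h and 0, 0.0906 and 0 CPM at 24 h. M10 was the member with the largest fall from 12 to 24 h, with all 3 libraries at 24 h below all 3 at 12 h and a log2 change of -2.17 ± 0.48 (SE; edgeR adjusted p = 0.00512). AT2G03740 (chr2:1142725-1143988, minus strand) has an LEA domain. AT2G03740 had 0.0848, 0 and 0 CPM at 0 h, 3.83, 2.12 and 6.49 CPM at 12 h and 20.4, 22.5 and 12.7 CPM at 24 h in the NAA50 line. For AT2G03740 the scrambled line had 0, 0.107 and 0 CPM at 0 h, 0 CPM in all 3 libraries at 12 h and 0 CPM in all 3 libraries at 24 h. In contrast to M10 it rose, with a log2 change of 2.16 ± 0.38 (SE; edgeR adjusted p = 0.00229) and no overlap between the 2 times. RAB28, an ABA-responsive gene of LEA type, had 10.8, 11.8 and 6.57 CPM at 12 h and 11.6, 14.4 and 9.61 CPM at 24 h, and the change did not pass. HAI3, a phosphatase that restrains ABA signalling, had 0.625, 0.157 and 3.12 CPM at 12 h and 2.16, 12.5 and 1.94 CPM at 24 h; library 2 at 24 h stood alone, and the groups overlapped. AT4G18660, annotated as a delay of germination protein, peaked at 5.92 CPM.

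Lipid enzymes made up 7 of the genes. AT3G23470 (chr3:8414616-8418784, plus strand) is annotated as a cyclopropane fatty acid synthase. AT3G23470 had 0, 0 and 0.0804 CPM at 0 h, 14.8, 12.9 and 13.5 CPM at 12 h and 53.9, 52.3 and 43.7 CPM at 24 h in the NAA50 line. For AT3G23470 the scrambled line had 0 CPM in all 3 libraries at 0 h, 0 CPM in all 3 libraries at 12 h and 0, 0 and 0.163 CPM at 24 h. Its 24 h libraries were all above those at 12 h, with a log2 change of 1.87 ± 0.20 (SE; edgeR adjusted p = 9.15e-05). GLIP2 (AT1G53940; chr1:20143144-20144974, plus strand) encodes a secreted GDSL lipase known from pathogen defence. GLIP2 had 0 CPM in all 3 libraries at 0 h, 1.41, 1.57 and 2.87 CPM at 12 h and 39.0, 25.9 and 16.1 CPM at 24 h in the NAA50 line. GLIP2 had no count in any library of the scrambled line. GLIP2 rose with a log2 change of 3.79 ± 0.42 (SE; edgeR adjusted p = 0.000811), and at 24 h it was at least 298-fold above the scrambled line, whose 3 libraries without a count are set at 3 counts in all. DSEL (AT4G18550; chr4:10224661-10227140, minus strand) encodes a lipase of germinating seedlings. DSEL had 0.170, 0.0955 and 0.161 CPM at 0 h, 13.8, 10.7 and 9.03 CPM at 12 h and 24.6, 29.1 and 14.9 CPM at 24 h in the NAA50 line. For DSEL the scrambled line had 0.0942, 0.429 and 0.18 CPM at 0 h, 0.0911, 0.295 and 0.544 CPM at 12 h and 0, 0.634 and 0.244 CPM at 24 h. DSEL libraries of the 2 times did not overlap and the log2 change was 1.02 ± 0.32 (SE; edgeR adjusted p = 0.0340), but leaving out any 1 library of these groups except library 3 at 24 h ended that call, with adjusted p of 0.0541 to 0.146. The GDSL lipases AT1G28590, AT2G42990 and GLL22 and the biotin carrier BCCP2 of plastid fatty acid synthesis peaked at 5.92 to 10.5 CPM, and none passed the test.

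Enzymes of special metabolism contributed 8 genes, of which 3 rose and none fell. Among all genes tested 10.4% rose and 9.69% fell, and nothing is read from the family counts. CYP76C3 (AT2G45580; chr2:18782231-18784530, minus strand) is a cytochrome P450 that oxidizes linalool in flowers. CYP76C3 had 0.170, 0 and 0 CPM at 0 h, 9.14, 14.4 and 12.6 CPM at 12 h and 37.3, 47.5 and 28.3 CPM at 24 h in the NAA50 line. For CYP76C3 the scrambled line had 0 CPM in all 3 libraries at 0 h, 0, 0.0983 and 0 CPM at 12 h and 0, 0 and 0.0814 CPM at 24 h. Levels at 24 h all exceeded those at 12 h, with a log2 change of 1.64 ± 0.26 (SE; edgeR adjusted p = 0.000757). CYP702A3 (AT4G15310; chr4:8736721-8740211, plus strand) is another P450. CYP702A3 had 0, 0.0955 and 0 CPM at 0 h, 9.61, 8.62 and 6.73 CPM at 12 h and 36.0, 35.9 and 22.8 CPM at 24 h in the NAA50 line. CYP702A3 had no count in any library of the scrambled line. CYP702A3 had no count in any scrambled library and rose by a log2 change of 1.92 ± 0.24 (SE; edgeR adjusted p = 0.000618). CYP702A2 and CYP702A3 lie 3869 bases apart on opposite strands, and at 12 h CYP702A3 had a mean of 8.32 CPM while CYP702A2 had 0.105 CPM. CCD8, which acts in strigolactone synthesis, had 0.703, 0.235 and 2.30 CPM at 12 h and 4.22, 10.1 and 6.11 CPM at 24 h and did not pass (edgeR adjusted p = 0.0502). It did pass in some alternative fits (edgeR adjusted p = 0.0252 to 0.0498). SSL1, a strictosidine synthase-like gene 3795 bases from M10, peaked at 14.5 CPM, and the terpenoid cyclase AT3G29190, the O-methyltransferase AT4G35160 and the flavin monooxygenase AT1G62620 at 5.12 to 5.59 CPM. AT1G62620 has a near-identical copy, AT1G63370, so its counts are uncertain.

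**Figure D4:**
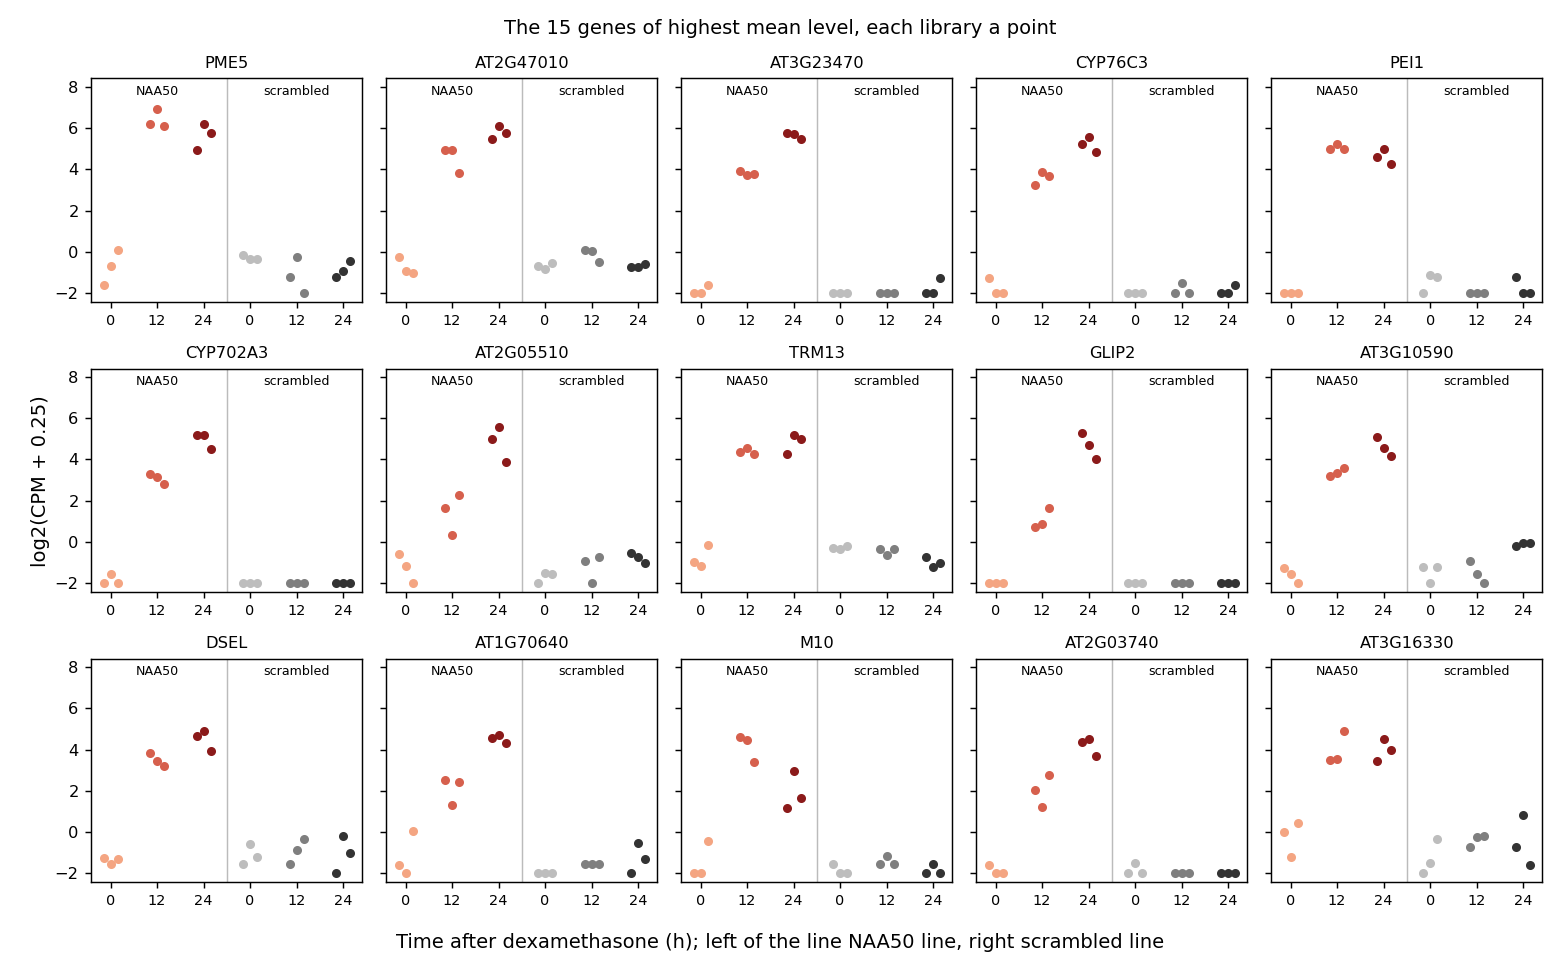
Level as log2(CPM + 0.25) of the 15 genes with the highest mean in the NAA50 line at 12 or 24 h, each point a library, by line and time. GLIP2 and AT2G05510 climb steeply between 12 and 24 h, PEI1 and PME5 are about as high at both times, M10 drops, and the scrambled line stays near the bottom of every panel.

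Receptor and defence genes numbered 9, with 5 that rose and 1, LYK2, that fell. The shares of all genes tested were 10.4% and 9.69%, and nothing is read from the family counts. AT4G13190, a receptor-like kinase, had 5.47, 5.72 and 5.09 CPM at 12 h and 12.97, 16.1 and 9.91 CPM at 24 h, a log2 change of 1.25 ± 0.30 (SE; edgeR adjusted p = 0.00824). It overlaps CLE44, the gene of a secreted peptide of vascular tissue, on the same strand over 16.5% of its length; CLE44 had 19.8 CPM at 12 h and 25.9 CPM at 24 h in the NAA50 line and 2.52 and 2.51 CPM at those times in the scrambled line. The chitinase AT2G43580 had 0.703, 1.18 and 1.23 CPM at 12 h and 12.18, 7.09 and 5.22 CPM at 24 h, a log2 change of 2.96 ± 0.44 (SE; edgeR adjusted p = 0.000268). The VQ motif protein AT5G65170, the cupin AT3G05950 and the mannose-binding lectin AT1G78860 also rose. A second lectin gene, AT2G43730, peaked at 13.4 CPM without passing the test. CHAL, a secreted peptide of stomatal patterning, had 6.17, 6.82 and 5.58 CPM at 12 h and 8.45, 8.79 and 5.89 CPM at 24 h and did not pass.

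The cytoskeleton and membrane traffic group of 7 was mostly on already at 12 h, with 6 genes at 5 CPM or more. TRM13 (AT2G45900; chr2:18885751-18889178, minus strand) belongs to the TON1 recruiting motif proteins, which help to place cortical microtubules. TRM13 had 0.254, 0.191 and 0.643 CPM at 0 h, 20.2, 23.4 and 18.8 CPM at 12 h and 19.1, 36.3 and 31.7 CPM at 24 h in the NAA50 line. For TRM13 the scrambled line had 0.565, 0.536 and 0.630 CPM at 0 h, 0.547, 0.393 and 0.544 CPM at 12 h and 0.359, 0.181 and 0.244 CPM at 24 h. The 2 times overlapped, and the log2 change of 0.48 ± 0.20 (SE; edgeR adjusted p = 0.108) did not pass, except without library 1 at 24 h (adjusted p = 0.0160). WVD2, a microtubule-binding protein of organ twisting, had 9.22, 8.70 and 7.64 CPM at 12 h and 4.72, 6.15 and 6.56 CPM at 24 h. The Sec14-like AT1G05370 peaked at 16.3 CPM at 12 h, and the GTPase RABC2b at 11 CPM at 24 h. AT5G01760, an ENTH/VHS/GAT protein of vesicle sorting, was at 0.547, 0.941 and 0.657 CPM at 12 h and 6.09, 6.62 and 3.73 CPM at 24 h and rose by a log2 change of 2.91 ± 0.45 (SE; edgeR adjusted p = 0.000380).

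Smaller groups were transporters, with 4 genes, and ubiquitin and chaperone genes, also 4. NAT7, a nucleobase-ascorbate transporter, had 3.52, 3.29 and 2.22 CPM at 12 h and 7.76, 6.15 and 5.22 CPM at 24 h and rose (edgeR adjusted p = 0.0152). Its call was lost without library 3 at 12 h or library 1 at 24 h (edgeR adjusted p = 0.0601 and 0.0735). The cation efflux gene AT3G58060 and the nodulin-like AT2G34350 did not pass. UBC12, a ubiquitin-conjugating enzyme, had 10.5, 12.23 and 14.0 CPM at 12 h and 16.4, 11.9 and 10.7 CPM at 24 h, and SUMO5, a small ubiquitin-like modifier, 11.5, 12.9 and 5.91 CPM at 12 h and 9.33, 9.36 and 6.48 CPM at 24 h. Neither passed the test, and the libraries of the 2 times overlapped. TPR14, a tetratricopeptide repeat protein, rose by a log2 change of 2.05 ± 0.45 (SE; edgeR adjusted p = 0.00512).

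The remaining 21 genes are of mixed or unknown function, and 7 of them rose and 2 fell. Over all genes tested 10.4% rose and 9.69% fell, and nothing is read from the counts in this group. AT1G70640 (chr1:26636110-26637876, plus strand) has a PB1 domain, a fold for pairing of proteins. AT1G70640 had 0.0848, 0 and 0.804 CPM at 0 h, 5.47, 2.27 and 5.09 CPM at 12 h and 23.2, 25.7 and 19.4 CPM at 24 h in the NAA50 line. For AT1G70640 the scrambled line had 0 CPM in all 3 libraries at 0 h, 0.0911, 0.0983 and 0.0906 CPM at 12 h and 0, 0.453 and 0.163 CPM at 24 h. Its 24 h libraries lay well above those at 12 h, and the log2 change was 2.41 ± 0.43 (SE; edgeR adjusted p = 0.00170). AT3G16330 (chr3:5535124-5536237, plus strand) is annotated as rapidly elicited by a fungal effector. AT3G16330 had 0.763, 0.191 and 1.13 CPM at 0 h, 11.2, 11.2 and 29.3 CPM at 12 h and 10.8, 22.7 and 15.6 CPM at 24 h in the NAA50 line. For AT3G16330 the scrambled line had 0, 0.107 and 0.540 CPM at 0 h, 0.364, 0.590 and 0.634 CPM at 12 h and 0.359, 1.54 and 0.0814 CPM at 24 h. One library at 12 h stood above all others, the times overlapped, and the log2 change of -0.07 ± 0.47 (SE; edgeR adjusted p = 0.938) turns positive without library 3 at 12 h (0.55) or library 1 at 24 h (0.15). NIC3, a nicotinamidase of the NAD salvage route, had 10.4, 10.7 and 9.36 CPM at 12 h and 13.2, 16.2 and 9.91 CPM at 24 h. The noncoding RNA AT2G22821 peaked at 10.6 CPM, and 35.5% of its length is shared with AT2G22820 on the other strand. The F-box gene AT4G04480 peaked at 5.34 CPM; 69.6% of it overlaps PMP22 on the other strand, a peroxisomal membrane protein gene with 58.8 CPM at 12 h and 63.0 CPM at 24 h in the NAA50 line and 23.1 CPM at 12 h and 25.5 CPM at 24 h in the scrambled line.

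Overlap with another annotated gene was found for 18 of the 83 genes, in 5 over at least 50% of their length (LYK2, MIR408, AT4G04480, MAN1 and AT4G16540). A near-identical copy (at least 95% identity over 50% of the length) was found for AT1G62620, MIR408 and AT4G04480; for MIR408 and AT4G04480 that copy is the overlapping gene itself. Apart from the pairs named above, AT4G18540 and DSEL lie 1584 bases apart on the same strand, and no other 2 of the genes lie within 5000 bases of each other without a gene between them. By chromosome 25, 18, 13, 12 and 15 of the genes lie on chromosomes 1 to 5, or 30.1%, 21.7%, 15.7%, 14.5% and 18.1%, where the other genes tested have 26.4%, 15%, 19.8%, 15.4% and 23.4%.

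The annotation notes of TAIR10.1 give, for some genes, the number of plant structures in which expression has been recorded. For 44 of the 83 genes with such a note the median was 6 structures, and 47.7% had 5 or fewer; for 10978 other genes tested the median was 22, and 8.94% had 5 or fewer. The rule asked for silence in leaves, which by itself favours genes recorded in few structures. The notes name the structures only for genes with 5 or fewer, so more broadly recorded genes are left out on both sides here. Of the 21 such genes among the 83, roots are named for 11 (52.4%), flowers for 7 (33.3%), pollen or the male gametophyte for 5 (23.8%), seeds for 3 (14.3%) and leaves for 2 (9.52%). Flowers include floral organs such as sepals and carpels, and seeds include embryo and endosperm. For the 981 other genes tested with named structures the shares were 22.8% for roots, 25.2% for flowers, 26.7% for pollen or the male gametophyte, 9.07% for seeds and 27.6% for leaves, so pollen stood near its share among the others, and these small counts were not tested. CBF4, for example, is noted in stem, root, pedicel and carpel, NIC3 in root, and AT3G05950 in sperm cell, pollen tube, root and flower. The genes were somewhat smaller than the rest, with a median transcript of 1528 bases and 3 exons, where the other genes tested had 1766 bases and 5 exons.

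In promoters, taken as the 250 bases before the annotated start, the ABA response element core ACGTG was present on either strand in 38.6% of the 83 genes, 23.7% of 17996 other genes tested and 22.1% of all 31248 promoters. The TATA box TATAAA was present in 62.7% of the 83 and 45.5% of the others, and the G box CACGTG, which contains the ABA core, in 12% and 7.57%. The W box core TTGAC of WRKY factors stood in 42.2% of the 83 and 45% of the others, and the copper response core GTAC in 39.8% and 34.7%. None of the 83 held the GCC box GCCGCC of ethylene response factors, which 2.02% of the others held. Shares for the auxin response element TGTCTC, the TCP core GGNCCC, the RY element CATGCA, the TGA core TGACG and the heat shock element GAANNTTC were 12%, 6.02%, 9.64%, 20.5% and 9.64% in the 83 genes and 10.4%, 8.46%, 7.06%, 19.5% and 9.65% in the others. The evening element AAATATCT was in 8.43% and 5%, and the site of the yeast factor GAL4, used in some inducible systems, in 1.2% and 1.29%. These shares are descriptions of letters in a window and were not tested.

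**Figure D5:**
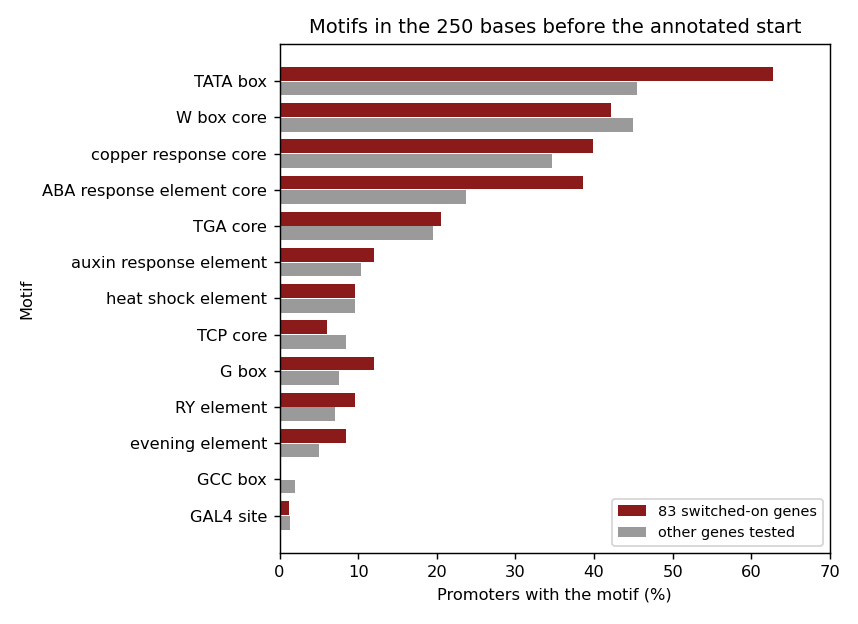
Share of promoters (%) that hold each motif on either strand in the 250 bases before the annotated start, for the 83 genes (red) and the other genes tested (grey). The largest gaps are for the TATA box (62.7% and 45.5%) and the ABA response element core (38.6% and 23.7%).

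Lists of genes for organs other than the leaf were set beside the 83, leaving members out. The line differences of these lists are to be read against all genes tested, of which 46.2% were called at 12 h (21.9% higher) and 47.9% at 24 h (23.9% higher). Of 25 measured pollen and pollen tube genes, 22 stayed under 1 CPM in all 6 groups, and of 3 that passed the filter 2 were higher in the NAA50 line at 12 h and 1 at 24 h. GRP17, a glycine-rich oleosin of the pollen coat, had 1.93 ± 0.638 CPM at 12 h and 1.89 ± 1.11 CPM at 24 h in the NAA50 line, and no count in the scrambled line (mean ± SD, n = 3; edgeR adjusted p = 0.00115 and 0.00103). The second, PIP5K4, had a log2 difference of 0.62 ± 0.23 (SE; edgeR adjusted p = 0.0412) at 12 h, a call lost without any 1 of several libraries (adjusted p up to 0.154). Of 16 seed maturation and embryo genes measured, 12 stayed under 1 CPM, PEI1 was a member, and of 3 others tested 1 was higher and 2 lower at both times. The higher one, EEL, a bZIP factor of the maturing seed, had 41.9 ± 7.23 CPM at 12 h and 35.4 ± 6.44 CPM at 24 h in the NAA50 line, and 2.62 ± 0.310 CPM at 12 h and 1.34 ± 0.602 CPM at 24 h in the scrambled line. The lower ones were WOX2 and CRB, and the call of WOX2 at 24 h was lost without library 2 or 3 of the NAA50 line or library 1 or 3 of the scrambled line (adjusted p = 0.0573 to 0.115). The annotation gives CRB to a chloroplast RNA-binding protein, not to a seed storage protein.

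Of 12 floral organ identity genes measured, 9 stayed under 1 CPM, none was higher, and 2 were lower at 12 h (AP2 and SEP4) and 3 at 24 h (AGL8 besides). The call of AGL8 was lost with DESeq2 (adjusted p = 0.0536), in a fit to the 2 groups alone (0.0735), and without library 1 or 2 of the NAA50 line or library 2 or 3 of the scrambled line (0.0512 to 0.0924). Of 17 root genes measured, 11 stayed under 1 CPM, and of 6 tested 2 were higher and 2 lower at 12 h and 1 higher and 4 lower at 24 h, of which 2 were lower without library 1 of the scrambled line. Among the 4 is RCD1 (log2 -0.79, edgeR adjusted p = 0.000738). RCD1 had means of 299 to 534 CPM in these leaf groups, so it is no marker of the root. The root endodermis regulator SHR was lower at 24 h, when the NAA50 line had 1.05 ± 0.960 CPM and the scrambled line 7.87 ± 1.72 CPM (log2 -2.81 ± 0.40 (SE; edgeR adjusted p = 4.21e-05)). Of 18 shoot meristem and organ boundary genes measured, 10 stayed under 1 CPM, and of 7 tested 3 were higher and 3 lower at 12 h and 4 higher and 1 lower at 24 h, where 0 to 2 were lower with 1 library left out. Among the 18, bHLH39 is by its symbol a basic helix-loop-helix factor, not a boundary gene, and did not pass the filter. The boundary gene LSH4 had 11.3 ± 2.30 CPM at 12 h and 16.6 ± 3.11 CPM at 24 h in the NAA50 line, and 3.22 ± 0.838 CPM at 12 h and 1.11 ± 0.148 CPM at 24 h in the scrambled line. LSH3 and BOP2 were higher at both times as well, with log2 differences at 24 h of 2.74 ± 0.34 (SE; edgeR adjusted p = 1.04e-05) and 2.43 ± 0.28 (SE; edgeR adjusted p = 5.74e-06). The call of LSH3 at 12 h was lost without library 1 or 2 of either line (adjusted p = 0.0715 to 0.0886).

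CYS2, a cystatin that inhibits cysteine proteases, shows where the rule draws its line. It had 1318 ± 70.9 CPM at 12 h and 2520.2 ± 497 CPM at 24 h in the NAA50 line, and 0.759 ± 0.451 CPM at 12 h and 1.71 ± 0.870 CPM at 24 h in the scrambled line (mean ± SD, n = 3). It is not among the 83 because its mean was above 1 CPM in the NAA50 line at 0 h, with 3.27 ± 2.46 CPM, and in the scrambled line at 24 h. Of the 3 cystatins tested, 1 was higher at 12 h and 3 were at 24 h. Of 6 plant intracellular Ras-group LRR genes tested, 2 were higher and 1 lower at 12 h and 1 higher and 2 lower at 24 h, 3 of 6 at each time and so near the share of all genes. With 1 library left out, 1 or 2 were higher and 0 or 1 lower at 12 h, and 1 higher and 1 or 2 lower at 24 h. Among 18 TCP transcription factors tested, 3 were higher and 12 lower at 12 h and 3 higher and 11 lower at 24 h (1 higher without library 1 or 2 of the NAA50 line), with TCP14 at log2 -1.61 ± 0.18 (SE; edgeR adjusted p = 4.39e-06) at 12 h.

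Markers of the leaf itself differed between the lines the other way: of 19 tested, none was higher, and 18 were lower at 12 h and 13 at 24 h. Without library 3 of the NAA50 line or library 3 of the scrambled line at 24 h, 8 were lower at that time. The carbonic anhydrase gene CA1 had a log2 difference of -2.95 ± 0.36 (SE; edgeR adjusted p = 1.11e-05) at 12 h and -2.42 ± 0.35 (SE; edgeR adjusted p = 4.83e-05) at 24 h. All 19 leaf markers had a lower mean in the NAA50 line already at 0 h, which was not tested. These calls alone thus do not show a change after induction. At 0 h CA1 had means of 2343 CPM in the NAA50 line and 3412 CPM in the scrambled line. CAB3 had 3169 and 5017 CPM at 0 h and 823 and 1003 CPM at 24 h. Of 10 guard cell markers, none was higher and 4 were lower at 12 h, and 1 was higher (TGG1) and 3 were lower at 24 h. The call of TGG1 was lost without library 2 of the NAA50 line (adjusted p = 0.0896) or library 3 of the scrambled line (0.0570). Of 7 epidermis and trichome markers, 2 were higher and 2 lower at 12 h and 3 were higher and 3 lower at 24 h. The part that any shift in cell types may have in the levels of the 83 genes was not tested.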

How the data were processed

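The authors deposited 1 raw count for each gene and library (whole numbers whose column totals differ). The submitters' processing notes list the build TAIR10 and, with no version, the tools STAR, Trimmomatic and DESeq2; which program counted reads, on which strand and against which annotation is not given in the sources used here. The library kit keeps the strand of the mRNA, per the labels' protocols.

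All 18 columns were used. The software was R 4.3.3 and edgeR 4.0.16: filterByExpr (minimum count 10, minimum total 15) kept 18344 genes (77.1%), libraries were scaled by TMM, and a single model over all libraries had 1 mean for each group (biological coefficient of variation 18.2%, 12 residual degrees of freedom). A gene was called when its quasi-likelihood F test gave a p under 0.05 after Benjamini-Hochberg adjustment. This test gives no SE, so the SE printed is the size of the log2 change divided by the square root of F. It is rough where counts are near 0. Tests were made of the change from 12 to 24 h in each line and the line difference (NAA50 line minus scrambled line) at 12 and 24 h. A line difference of a gene among the 83 is a description. The test was tried on simulated data made from these libraries before use. Folds are ratios of summed scaled counts.

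No label gives a pairing. Deviations from the group means of same-numbered samples correlated at 0.182, 0.272 and 0.427 between the lines at 12 h. Between the NAA50 line at 0 and 12 h they correlated at 0.0749, 0.443 and 0.35. Between the lines at 24 h the values were 0.116, -0.264 and -0.0101. Between the scrambled line at 12 and 24 h they were negative, at -0.141, -0.27 and -0.464. No correlation was computed between samples of unlike number, so whether the numbers mark pairs cannot be told. The main model takes no pairs. The fit with the number as a block is an alternative, as are DESeq2 1.42.0, other scalings, no filter, fits to 2 groups and leaving out each library.

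Positions, sequences and expression notes come from RefSeq TAIR10.1, where 23500 gene identifiers (98.8%) and all 83 genes were found. The table gives no coordinates. Copies were sought with BLAST 2.17.0. The 83 genes, the gene lists and the roles were chosen with earlier results of these data known, and 4 loci were left out by the rule. Given in every library are the 15 genes of highest mean. Named besides are the 5 largest rises and falls from 12 to 24 h, the 3 genes nearest each threshold on either side, up to 3 list genes of smallest p, neighbours among the 83, and NAA50. Values of other members, and the copper genes, were picked after they were seen.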

Additional observations from a re-analysis of the deposited data

Results flagged for a closer look

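The list genes of smallest p that passed a line difference (NAA50 line minus scrambled line) were also checked for a change in that difference. In 8 of them it was not the same at 24 h as at 12 h (edgeR interaction test, adjusted p under 0.05). The genes checked were picked by p-values of the same data, and the rest of each list was not part of this check. The log2 difference at 24 h minus that at 12 h was 1.80 for LSH3 and 2.08 for LSH4, both organ boundary genes, and 2.17 for the phosphate exporter gene PHO1. It was 1.69 for ABCG12 and 1.34 for KCS6, genes of cuticular wax, 1.44 for the pectin methylesterase PME44, 0.78 for the cystatin CYS1 and -0.57 for TCP8.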

How the results depend on the processing

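The number of genes the rule takes follows its thresholds. It was 48 with silence set under 0.5 CPM, 147 under 2 CPM, 138 with 3 CPM and 36 with 10 CPM as the level for being on, against 83. It was 88 by library size alone, 83 by DESeq2 size factors, 80 by group medians (69 of them shared) and 76 to 90 with 1 library left out. The counts for the change from 12 to 24 h in the NAA50 line fell most when a library was left out: 2111 to 3325 of all genes, against 3678, and among the 83 genes 26 to 34 rises, against 33, and 3 to 5 falls, against 5. In the scrambled line the same change gave 3168 to 6672 genes, against 5625. The line differences gave 7036 to 7834 genes at 12 h, against 8484, and 7214 to 8454 at 24 h, against 8794. With the sample number as a replicate block the counts were 3474 for the NAA50 line and 5367 for the scrambled line from 12 to 24 h and 8368 and 8645 for the line differences at 12 and 24 h. Among the 83 genes the block gave 33 rises and 6 falls: it added the rise of CBF4 (adjusted p = 0.0479) and the fall of PME5 (0.0496), ended the call of RABC2b (0.0510) and changed no other call among the 83. Same-numbered samples of the NAA50 line at 12 and 24 h correlated at 0.0259, 0.256 and 0.211. DESeq2, the other scalings, no filter and a fit to the 2 groups alone gave 32 to 36 rises and 5 or 6 falls. Of the 45 genes that did not pass, 10 did in at least 1 alternative. The change of AT3G16330 spanned -0.38 to 0.55 over the alternatives. Counts of small lists moved by 1 to 3 genes under several settings; leaf markers lower at 24 h numbered 7 in a fit to those 2 groups. The causes were not tested. At these depths a level under about 0.3 CPM in 1 library cannot be told from 0.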
